A study of Homo sapiens with 24 samples.

Results

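The 17β-hydroxysteroid dehydrogenases examined here were HSD17B1, HSD17B4, HSD17B8, HSD17B10, HSD17B11, HSD17B12 and HSD17B14, together with CBR4, the partner subunit of HSD17B8. They were taken by gene symbol from a table of read counts and made up 8 of its 60563 named genes. All 8 passed the filter on low counts, which left 18295 genes for testing. The family was proposed because HSD17B8 was low in the Δ133p53β lines, so the members were chosen by measured values of these libraries, the counts of HSD17B8, and its levels are described without a p-value.

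The RNA came from H1299 cells, an established line from a human non-small cell lung cancer that lacks p53. The control cells carried the vector only. The other cells had a stably introduced plasmid for a p53 isoform that lacks the first part of the protein, either Δ133p53α (lines Δ133p53α1, Δ133p53α2 and Δ133p53α8) or Δ133p53β (lines Δ133p53β5 and Δ133p53β10), which differ at the end of the protein. Each isoform line was a single clone, so a difference between isoforms cannot be told apart from a difference between clones. There were 4 libraries of the control and of each Δ133p53α line, 3 of Δ133p53β5 and 4 of Δ133p53β10. For 1 more Δ133p53β library the sample title and the table header named different lines, and its values are given apart. Nothing in the labels says whether libraries of a line came from separate cultures, so the tests measure only the spread between libraries.

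Total counts per library lay between 21531599 and 25381731. The keratins KRT8 and KRT18 and the mesenchymal gene VIM were abundant, with at least 11255 reads of each in every library. The epithelial genes KRT19, CDH1 and EPCAM had at most 5 reads in any library, and the lung lineage genes NKX2-1, SFTPB and NAPSA at most 14. The 12 marker genes of fibroblasts, blood and endothelium had at most 41 reads in any library, and LUM, PTPRC and CD3E had 0. Of all these marker genes, KRT8 was called higher in Δ133p53α1, Δ133p53α2, Δ133p53α8 and Δ133p53β10, KRT18 higher in Δ133p53α1 and the mesenchymal gene FN1 lower in Δ133p53β10. The libraries fell into 2 sets, 12 in which longer genes read relatively high and 12 in which they read relatively low. Every line had libraries of both sets but in unequal numbers, from 1 to 3 of each. Levels by set, or fits of the positive-trend libraries alone, are given beside results, and the part of the sets in those results was not tested. Δ133p53α1, Δ133p53β5 and Δ133p53β10 had 1 positive-trend library each, so for them these fits give a fold change only.

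Enzymes of this family move hydrogen between NAD(P) and a hydroxyl or keto group. They were named after the conversion of weak into potent sex steroids and back, but several act mainly on fatty acids. HSD17B8 and CBR4 together form the ketoacyl reductase of mitochondrial fatty acid synthesis, the pathway that makes the precursor of lipoic acid. HSD17B4 works in peroxisomal β-oxidation, HSD17B12 in the elongation of very long chain fatty acids in the endoplasmic reticulum, and HSD17B10 in mitochondrial isoleucine breakdown and as a subunit of mitochondrial RNase P. HSD17B11 sits on lipid droplets, HSD17B1 makes estradiol from estrone, and HSD17B14 can oxidize estradiol.

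HSD17B8 (ENSG00000204228) lies on chromosome 6, at positions 33204655 to 33206831 of the plus strand in GRCh38. Its promoter is shown because HSD17B8 was the member whose RNA level differed most between the lines. The window, from RefSeq on GRCh38.p14, spans chr6:33204405-33204704 on the plus strand, from 250 bases before the start of the gene to 50 after it. Capitals mark CCAAT boxes, which lie on the opposite strand and so read ATTGG here.
HSD17B8: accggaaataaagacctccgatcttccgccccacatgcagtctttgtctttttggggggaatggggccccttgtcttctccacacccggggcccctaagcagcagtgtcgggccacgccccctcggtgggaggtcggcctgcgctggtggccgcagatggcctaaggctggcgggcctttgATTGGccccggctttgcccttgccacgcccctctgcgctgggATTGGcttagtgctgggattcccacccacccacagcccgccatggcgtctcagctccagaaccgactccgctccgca
The 2 boxes begin 69 and 27 bases before the start. A search on both strands found at least 2 copies of CCAAT in 10.8% of the 35116 promoters of this length. The window held 19 CG dinucleotides, against a median of 14, and 58.8% of the promoters held that number or fewer. Of the 8 members, 5 had a promoter in the table. HSD17B10 also had 2 CCAAT boxes, with 26 CG dinucleotides, HSD17B11 had 1 box and 18 CG, and CBR4 and HSD17B4 had 0 boxes, with 31 and 19 CG. HSD17B1, HSD17B12 and HSD17B14 had no entry.

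HSD17B8 was close to absent in both Δ133p53β lines and present in every other line. In control, the 4 libraries held 13.7, 5.91, 13.5 and 5.91 CPM (counts scaled to 1000000 per library), from 139 to 360 reads. In Δ133p53α1 they held 7.92, 16.1, 19.4 and 29.5 CPM, and in Δ133p53α2 33.3, 5.55, 10.6 and 11.2 CPM. Both ranges overlapped the control range. Δ133p53α8 was lower, with 1.91, 8.99, 3.12 and 2.88 CPM, and its range met the control range only through its second library. In Δ133p53β5 the 3 libraries held 0.256, 0.409 and 0.595 CPM, or 6, 9 and 13 reads. In Δ133p53β10 the 4 held 0.166, 0.290, 0.473 and 0.457 CPM, or 4, 6, 9 and 11 reads. The 7 Δ133p53β libraries all lay below the lowest of the 16 other libraries, with no overlap. The Δ133p53β library of unresolved line had 0.514 CPM, from 10 reads, inside the range of the Δ133p53β5 libraries. From lowest to highest, the mean level was 0.346 ± 0.146 CPM in Δ133p53β10, 0.420 ± 0.170 in Δ133p53β5, 4.22 ± 3.22 in Δ133p53α8, 9.74 ± 4.42 in control, 15.2 ± 12.4 in Δ133p53α2 and 18.2 ± 8.92 in Δ133p53α1 (SD, n = 3 in Δ133p53β5 and 4 in the others). Neighbours in this order overlapped except Δ133p53α8 and Δ133p53β5.

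**Figure D1:**
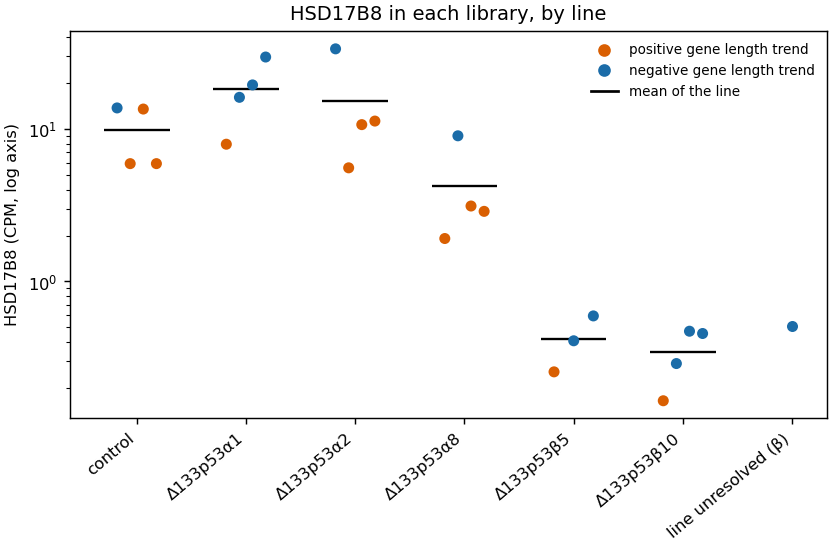
HSD17B8 in each library, in CPM on a log axis, by line. Points are libraries, coloured by the direction of their trend with gene length, and bars are line means. The Δ133p53β libraries lay between 0.166 and 0.595 CPM, and the lowest of the other libraries was at 1.91 CPM.

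As ratios of line means, HSD17B8 was 23.2-fold below control in Δ133p53β5 and 28.1-fold below it in Δ133p53β10, and the mean of the Δ133p53β lines was 32.7-fold below the mean of the Δ133p53α lines. The fitted log2 fold changes against control were -4.84 (SE 0.65) in Δ133p53β10, -4.53 (SE 0.71) in Δ133p53β5, -1.22 (SE 0.53) in Δ133p53α8, 0.60 (SE 0.51) in Δ133p53α2 and 0.86 (SE 0.52) in Δ133p53α1. Between the isoforms the fitted log2 difference was -4.76, with a 95% interval of -5.77 to -3.75. Because HSD17B8 chose the family, these standard errors and this interval only describe the spread between libraries and test nothing. The 5 comparisons with control share the same 4 control libraries. Within Δ133p53α1, Δ133p53α2 and Δ133p53α8 the libraries with the negative length trend were higher, at 16.1 to 29.5, 33.3 and 8.99 CPM, than those with the positive trend, at 7.92, 5.55 to 11.2 and 1.91 to 3.12 CPM. Among positive-trend libraries alone, the 3 of Δ133p53α8 lay below the 3 of control, at 5.91 to 13.5 CPM. Without the second Δ133p53α8 library, its only negative-trend one, the log2 fold change of Δ133p53α8 was -1.90. In Δ133p53α2 it was -0.10 without the first library, the only negative-trend one of that line. The low level in the Δ133p53β lines held within each set: 0.290 to 0.595 CPM against 8.99 to 33.3 in the other negative-trend libraries, and 0.166 to 0.256 against 1.91 to 13.5 in the other positive-trend libraries. With the set as a term of the fit, the log2 fold change of Δ133p53α1 was 0.06, and among positive-trend libraries alone it was -0.11. In bulk RNA, fewer cells with the transcript and less transcript per cell cannot be told apart.

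A gene was called when its adjusted p (edgeR's quasi-likelihood test, Benjamini-Hochberg over all tested genes) was under 0.05 and its log2 fold change was at least 1.5 in either direction. In Δ133p53β5, 1 of 8 members, HSD17B8, was called lower, where 2.96% of all tested genes were called lower. In Δ133p53β10 it was again 1 of 8, where 2.97% of genes were called lower, and between the isoforms 1 of 8 with 0.793% of genes lower. Because HSD17B8 chose the family, nothing is read from these counts. In Δ133p53α1, Δ133p53α2 and Δ133p53α8, 0 of 8 members were called, where 1.54%, 1.83% and 1.55% of all genes were called lower and 1.04%, 0.978% and 0.984% higher. The other 7 members were called in 0 of the 6 comparisons by edgeR (genes called higher made up 1.31% in Δ133p53β5, 1.76% in Δ133p53β10 and 0.596% between the isoforms), and only CBR4 in Δ133p53α1 had an unadjusted p under 0.05. Across the 8 members the median log2 fold change ran from -0.22 in Δ133p53α8 to 0.21 in Δ133p53α2, and over all tested genes it ran from -0.08 to 0.01.

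**Figure D2:**
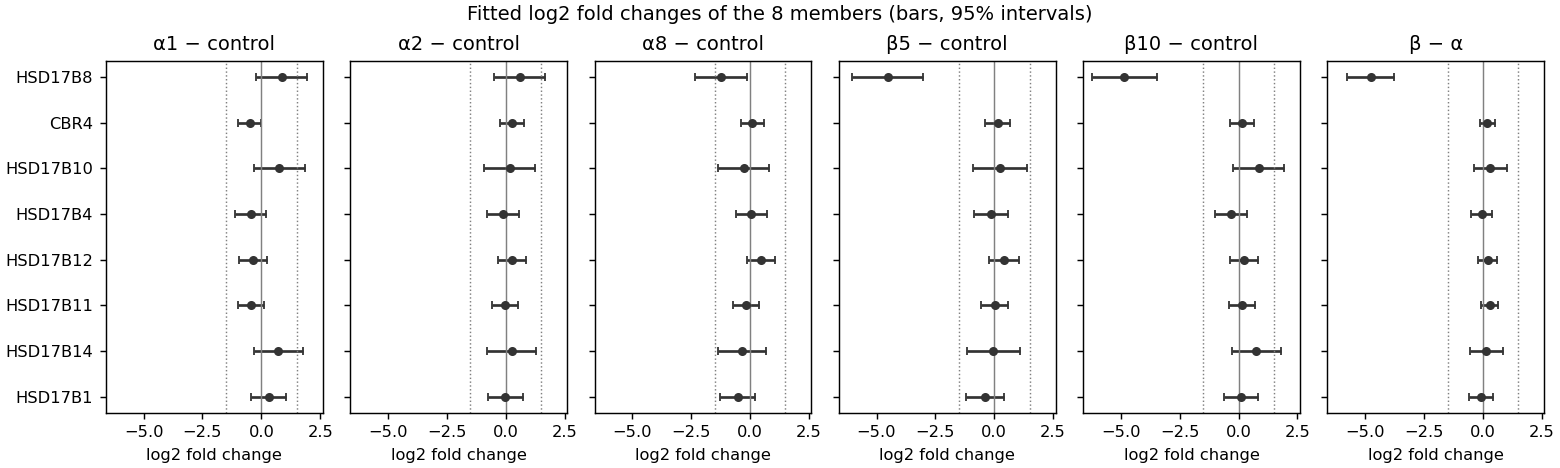
Fitted log2 fold change of each member in the 6 comparisons, with 95% intervals as bars and dotted lines at the threshold of 1.5. HSD17B8 lies at -4.53, -4.84 and -4.76 in the comparisons with a Δ133p53β line, and the other members lie within the dotted lines in all 6.

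CBR4, whose protein joins HSD17B8 in the reductase, was present in every line, in Δ133p53β as in the others. In control CBR4 (ENSG00000145439, chromosome 4) held 8.35, 6.93, 11.2 and 8.74 CPM. In Δ133p53β5 it held 9.90, 9.91 and 9.66 CPM and in Δ133p53β10 11.6, 8.85, 6.77 and 12.7 CPM. Both Δ133p53β ranges overlapped the control range. The Δ133p53α lines spanned 4.69 to 13.1 CPM, lowest in Δ133p53α1 at 6.33 ± 1.78 and highest in Δ133p53α2 at 10.8 ± 1.54 (SD, n = 4). Between the isoforms the log2 difference was 0.19, with a 95% interval of -0.14 to 0.52 and an adjusted p of 0.625. The largest difference from control was -0.50 in Δ133p53α1 (adjusted p = 0.188), a line with 3 negative-trend libraries, in which CBR4 read 4.69 to 6.51 CPM against 8.74 in its positive-trend library. Per base of transcript, HSD17B8 exceeded CBR4 in control, with a ratio of 3.85 ± 1.49 (SD, n = 4). Among the Δ133p53α lines the ratio was 1.75 ± 1.70 for α8, 5.13 ± 4.52 for α2 and 11.0 ± 5.72 for α1 (SD, n = 4). The Δ133p53α8 mean rested on the second library, at 4.30, and was 0.897 ± 0.141 (SD, n = 3) without it, with the others at 0.762, 1.04 and 0.887. In Δ133p53α2 the negative-trend library stood at 11.8 and the others at 1.98 to 3.87. In Δ133p53α1 the negative-trend libraries stood at 10.5 to 15.9 and the positive-trend one at 3.19. Control stood at 2.38 to 4.24 in its positive-trend libraries and at 5.77 in its negative-trend one. In the Δ133p53β lines the ratio was 0.151 ± 0.0631 (SD, n = 3) for β5 and 0.135 ± 0.0813 (SD, n = 4) for β10. HSD17B8 thus lay below CBR4 in all 7 Δ133p53β libraries, in 2 of the 4 Δ133p53α8 libraries and in 0 of the 12 others.

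The genes around HSD17B8 on chromosome 6 were examined for a like pattern. Of 13 listed neighbours 11 were tested, since HLA-DPA1 and HLA-DPB1 had at most 12 reads in any library of the 6 lines. None of the 11 was called in any comparison by edgeR, where 0.793% to 2.97% of all genes were called lower and 0.596% to 1.76% higher. Between the isoforms none had an unadjusted p under 0.05. SLC39A7, a zinc transporter gene that starts 4.35 kb before HSD17B8, had 102 ± 17.2 CPM in control, 124 ± 12.9 in Δ133p53β5 and 144 ± 39.6 in Δ133p53β10. RING1, a Polycomb subunit gene that starts 3.85 kb after it, had 29.7 ± 8.06, 38.5 ± 6.47 and 47.1 ± 19.4 CPM (SD, n = 4, 3 and 4). Both Δ133p53β lines thus had mean levels of the flanking genes above the control mean, with overlapping ranges. The means of the Δ133p53α lines were above it too. They were 179, 129 and 130 CPM for SLC39A7 and 50.6, 44.2 and 33.9 CPM for RING1 in Δ133p53α1, Δ133p53α2 and Δ133p53α8. For SLC39A7 the Δ133p53α1 libraries, from 132 CPM, did not overlap control, at up to 121 CPM. Between the isoforms the 11 log2 differences ran from -0.38 for the collagen gene COL11A2 to 0.30 for B3GALT4, with a median of 0.01. In Δ133p53β10, 11 of the 11 fitted changes were above 0, from 0.22 for COL11A2 to 0.91 for RPS18, a ribosomal protein gene, and the median was 0.62, where the median of all tested genes was -0.05. In Δ133p53α1 the median was 0.80, and SLC39A7 (0.78, adjusted p = 0.0275) and VPS52 (0.63, adjusted p = 0.0219) passed the adjusted p but not the fold threshold. Δ133p53α1 and Δ133p53β10 each had 3 negative-trend libraries of 4. The medians in Δ133p53α2, Δ133p53α8 and Δ133p53β5 were 0.32, 0.18 and 0.28, with 11, 10 and 10 of the 11 changes above 0. An unadjusted p was under 0.05 for 9 of the 11 in Δ133p53α1, 6 in Δ133p53β10, 1 in Δ133p53β5 and 0 in Δ133p53α2 and Δ133p53α8. The part of the sets in these medians was not tested.

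**Figure D3:**
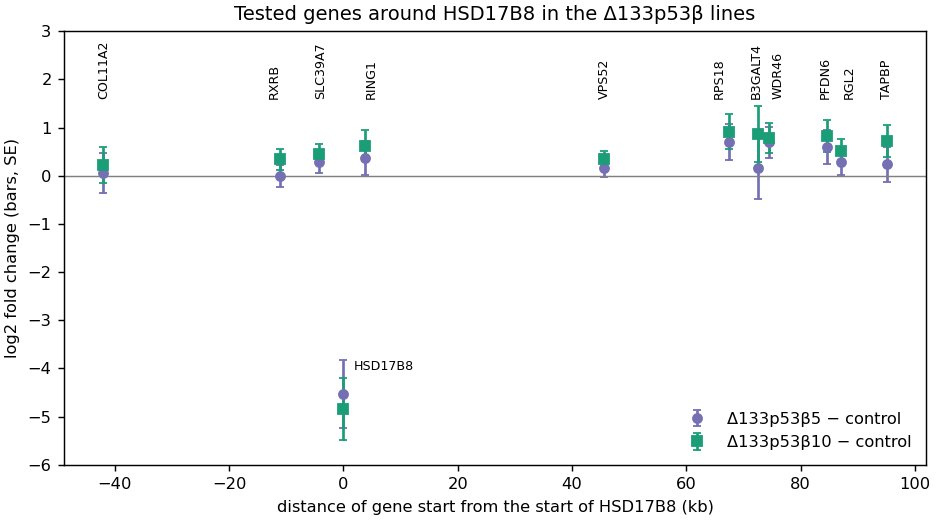
Fitted log2 fold change against control of HSD17B8 and the 11 tested genes around it, by the distance of each gene's start from the start of HSD17B8 in kb. Bars are standard errors. HSD17B8 lies at -4.53 in Δ133p53β5 and -4.84 in Δ133p53β10, and its neighbours lie between -0.01 and 0.91.

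In the rest of the mitochondrial fatty acid synthesis and lipoylation pathway, 1 of 14 genes was called higher in Δ133p53β5 and 0 of 14 in each of the other 5 comparisons, where 1.31% of all genes were called higher in Δ133p53β5. In those other 5 the share of all genes called higher was 0.596% to 1.76%. None of the 14 was called lower in any comparison, where 0.793% to 2.97% of all genes were. MCAT, which loads malonyl groups, averaged 21.7 ± 6.59 CPM in control, 27.4 ± 4.54 in Δ133p53β5 and 33.1 ± 19.6 in Δ133p53β10. OXSM, the condensing enzyme, had 7.82 ± 0.734, 10.6 ± 1.61 and 10.5 ± 1.29 CPM, and MECR, the enoyl reductase, had 20.2 ± 4.00, 25.4 ± 4.13 and 35.7 ± 14.2 CPM. NDUFAB1, the acyl carrier protein, had 113 ± 37.7, 127 ± 30.2 and 139 ± 50.2 CPM (SD, n = 4, 3 and 4 for each gene). In the Δ133p53α lines the means ran from 23.4 to 39.4 CPM for MCAT and from 7.05 to 10.7 for OXSM. They ran from 20.3 to 36.3 CPM for MECR and from 86.3 to 118 for NDUFAB1. Control had 3 positive-trend libraries and Δ133p53β10 had 3 negative-trend ones, and within Δ133p53β10 MCAT spanned 16.9 to 61.4 CPM. The part of the sets in the levels and fold changes of this pathway, with these genes, was not tested. The fitted log2 changes of these genes in the Δ133p53β lines were between 0.16 and 0.77, and none passed the adjusted p. ACSF3, which makes malonyl-CoA, lay at 0.09 and 0.41, RPP14 at 0.55 and 0.48, and LIAS, the lipoic acid synthase, at -0.14 and -0.14. LIPT1 and LIPT2, which transfer lipoate, lay at 0.46 and 0.25 and at 0.06 and 0.40. DLAT, DLST, DBT and PDHX, which carry lipoate or bind its carriers in the dehydrogenase complexes, lay between -0.36 and 0.37. The called gene was GCSH, the lipoate-bearing H protein of glycine cleavage, at 15 to 30 reads in control and 42 to 77 in Δ133p53β5, a log2 fold change of 1.52 (adjusted p = 0.00436). Processed copies of GCSH elsewhere in the genome could take part of its reads, and the call was lost without the third Δ133p53β5 library or the third or the fourth control library, at log2 fold changes of 1.22, 1.36 and 1.48. It was also lost with a filter of 1 CPM (1.48), with the library of unresolved line counted in Δ133p53β5 (1.47) and among positive-trend libraries alone (adjusted p = 0.0755). In Δ133p53β10, GCSH passed the adjusted p alone (1.12, adjusted p = 0.0219). It lay at 1.67 there among positive-trend libraries, from 1 library of that line. In Δ133p53α2 and Δ133p53α8, GCSH held 1.26 to 2.14 and 1.44 to 1.67 CPM, wholly above control at 0.561 to 1.15 CPM. Its Δ133p53α1 libraries, at 0.614 to 1.52 CPM, overlapped control. The median log2 fold change of the 14 was 0.27 in Δ133p53β5, 0.32 in Δ133p53β10 and 0.14 between the isoforms. In Δ133p53α1, Δ133p53α2 and Δ133p53α8 it was 0.03, 0.16 and 0.15.

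HSD17B10 (ENSG00000072506, chromosome X) had the most RNA of the family per base of transcript, at 109 ± 34.2 RPKM (CPM per kilobase of transcript, SD, n = 4) in control. HSD17B11 followed at 31.5 ± 8.60, HSD17B4 at 27.1 ± 4.01, HSD17B12 at 13.7 ± 1.98, HSD17B1 at 10.6 ± 1.77, HSD17B8 at 9.97 ± 4.53, HSD17B14 at 7.83 ± 4.30 and CBR4 at 2.56 ± 0.513 RPKM. By line, HSD17B10 ran from 86.6 ± 37.3 CPM in Δ133p53α8 to 194 ± 157 in Δ133p53β10 (SD, n = 4), and all ranges overlapped. The library sets, in contrast, separated it, but they were defined from the levels of tested genes in these same libraries. How many other genes they separate was not tested. The 12 positive-trend libraries held 56.8 to 104 CPM and the 11 negative-trend ones in the fit 118 to 421 CPM, with no overlap. The highest value came from the third Δ133p53β10 library. The fitted log2 fold changes ran from -0.27 in Δ133p53α8 to 0.85 in Δ133p53β10 (adjusted p = 0.282), and the isoform difference was 0.32, with a 95% interval of -0.40 to 1.04. In its list of mitochondrial isoleucine and β-oxidation enzymes and RNase P, 0 of 13 genes were called in the 6 comparisons by edgeR, with 0 to 4 of them at an unadjusted p under 0.05. Of all genes, 0.793% to 2.97% were called lower and 0.596% to 1.76% higher. The RNase P partners of HSD17B10, TRMT10C and PRORP, lay at 0.79 and -0.19 in Δ133p53β5 and at 0.66 and -0.23 in Δ133p53β10.

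HSD17B4 (ENSG00000133835, chromosome 5), the peroxisomal multifunctional enzyme, ranged from 27.2 to 90.9 CPM over the 23 libraries. The order of its line means was Δ133p53α8 (75.0 ± 15.5 CPM), control (71.2 ± 10.5), Δ133p53α2 (66.5 ± 22.2), Δ133p53β5 (65.5 ± 5.95), Δ133p53β10 (58.3 ± 25.4, SD) and Δ133p53α1, where the libraries held 77.2, 53.8, 40.5 and 40.4 CPM, and neighbours overlapped throughout. It read 67.5 to 90.9 CPM in positive-trend and 27.2 to 80.3 CPM in negative-trend libraries. The isoform difference was -0.06 on the log2 scale, with a 95% interval of -0.51 to 0.39. Among 18 genes of peroxisomal β-oxidation, none was called higher, where 0.596% to 1.76% of all genes were. In Δ133p53α1, Δ133p53α2 and Δ133p53β10, 2 were called lower, and 1 in Δ133p53α8 and Δ133p53β5, where 1.54% to 2.97% of all genes were called lower. These were 2 genes. ACOX2, the oxidase for branched chains and bile acid precursors, fell in all 5 lines, from 4.32 ± 2.74 CPM in control to 1.12 ± 0.433 in Δ133p53α2 and 0.328 ± 0.0347 in Δ133p53β5, with log2 fold changes of -1.97 to -3.71. ABCD2, a transporter gene of the peroxisomal membrane, fell from 5.50 ± 1.59 CPM in control to 1.28 ± 0.872 in Δ133p53α1, 1.37 ± 0.927 in Δ133p53α2 and 1.32 ± 0.803 in Δ133p53β10 (SD, n = 4). The call of ACOX2 in Δ133p53α2 was lost without any of 8 single libraries, with the largest adjusted p (0.149) without the third control library. In Δ133p53α8 its log2 fold change was -4.44 without the second library, against -3.37 with it. Among positive-trend libraries alone, ACOX2 lay at -3.59, -2.02, -3.71 and -3.77 in Δ133p53α1, Δ133p53α2, Δ133p53β5 and Δ133p53β10. It was not called in Δ133p53α2 (adjusted p = 0.0595), and the others of these lines had 1 such library each. ABCD2 was not called in Δ133p53α1 without any 1 of its 3 negative-trend libraries (adjusted p up to 0.0707), nor in Δ133p53α2 without its second or the third library (up to 0.0557). Among positive-trend libraries alone it lay at -0.99 in Δ133p53α1 and -1.08 in Δ133p53β10, from 1 library of each line. In Δ133p53β5 its log2 fold change of -1.63 missed the adjusted p (0.0673). There it was called by DESeq2 (-1.64, adjusted p = 0.0167), by limma (-1.58, adjusted p = 0.0441), with the library of unresolved line counted in Δ133p53β5 (-1.76, adjusted p = 0.0206) and without any 1 of 5 libraries of other lines. The list's median log2 fold change was -0.15 to -0.28 against control.

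HSD17B12 (ENSG00000149084, chromosome 11), the elongation reductase, ran from 20.0 to 60.1 CPM. Its line means were 46.1 ± 10.4 CPM in Δ133p53α8, next to it Δ133p53β5, then 39.8 ± 12.2 in Δ133p53α2, 39.3 ± 16.5 in Δ133p53β10, 32.8 ± 4.75 in control and 25.8 ± 4.87 in Δ133p53α1 (SD). All 3 Δ133p53β5 libraries, at 42.3 to 45.2 CPM, lay above the 4 control libraries, at 26.4 to 37.9 CPM, as did the 3 positive-trend Δ133p53α8 libraries at 41.0 to 56.6 CPM. These differences did not pass the test, with log2 fold changes of 0.41 (SE 0.30, adjusted p = 0.464) and 0.47 (SE 0.28, adjusted p = 0.489). The isoform difference was 0.20, with a 95% interval of -0.20 to 0.60. By set, HSD17B12 read 26.4 to 60.1 CPM in positive-trend and 20.0 to 45.2 CPM in negative-trend libraries. Of the other genes of very long chain elongation, 10 were tested and 0 were called in the 6 comparisons by edgeR, with 0 to 2 at an unadjusted p under 0.05. Shares of 0.793% to 2.97% of all genes were called lower and 0.596% to 1.76% higher. The list median was between -0.36 and 0.15.

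HSD17B11 (ENSG00000198189, chromosome 4), the lipid droplet member, ran from 42.1 ± 2.23 CPM in Δ133p53α1 to 63.2 ± 30.9 in Δ133p53β10 (SD, n = 4). Its median was 52.5 CPM in positive-trend and 53.5 in negative-trend libraries. The isoform difference was 0.29 on the log2 scale, with a 95% interval of -0.07 to 0.65. The 14 tested lipid droplet genes had 1 call in each line, in each case PNPLA3, a triglyceride remodelling enzyme, and 0 between the isoforms. Of all genes, 1.54% to 2.97% were called lower and 0.978% to 1.76% higher in the lines. Between the isoforms 0.793% were called lower and 0.596% higher. PNPLA3 fell from 2.18 ± 0.559 CPM in control to 0.265 ± 0.125 in Δ133p53β10 (SD, n = 4), and its log2 fold change was -3.07 there, -2.25 in Δ133p53β5, -2.07 in Δ133p53α2, -1.73 in Δ133p53α8 and -1.51 in Δ133p53α1. The value in Δ133p53α1 stood at the threshold, and the call was lost under 7 other settings and when any of 18 single libraries was left out. The call in Δ133p53α8 was lost without its first or the third library (adjusted p = 0.0584 and 0.0565). Among positive-trend libraries alone PNPLA3 lay at -0.74 in Δ133p53α1 and -1.99 in Δ133p53β5, from 1 library of each line. The isoform difference of PNPLA3 was -0.89 (adjusted p = 0.106). Over the list the median log2 fold change was between -0.13 and 0.23.

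HSD17B14 (ENSG00000087076, chromosome 19) and HSD17B1 (ENSG00000108786, chromosome 17) are the members linked most directly to estradiol. HSD17B14 averaged 6.59 ± 2.82 CPM in Δ133p53α8, 8.06 ± 1.93 in Δ133p53β5, 8.22 ± 4.51 in control, 10.1 ± 8.46 in Δ133p53α2, 14.0 ± 4.97 in Δ133p53α1 and 14.4 ± 7.84 in Δ133p53β10 (SD). Like HSD17B10 it followed the sets, at 4.50 to 14.0 CPM in positive-trend and 8.29 to 24.5 CPM in negative-trend libraries, and the lines with the highest means were those with 3 negative-trend libraries. Its isoform difference was 0.15, with a 95% interval of -0.55 to 0.85. HSD17B1 ran from 6.97 to 15.6 CPM (median 9.60) in positive-trend and from 10.9 to 25.1 CPM (median 15.5) in negative-trend libraries. Its fitted log2 fold changes of 0.32 in Δ133p53α1 and 0.10 in Δ133p53β10 were -0.36 and -0.77 among positive-trend libraries alone, and its isoform difference was -0.07, with a 95% interval of -0.57 to 0.43. The antisense gene HSD17B1-AS1 overlaps it in part, and their counts were nearly equal, with 0.931 to 1.04 reads of the antisense gene per read of HSD17B1 in the 24 libraries. The strand setting of the counting is not stated, so the level of HSD17B1 is uncertain.

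**Figure D4:**
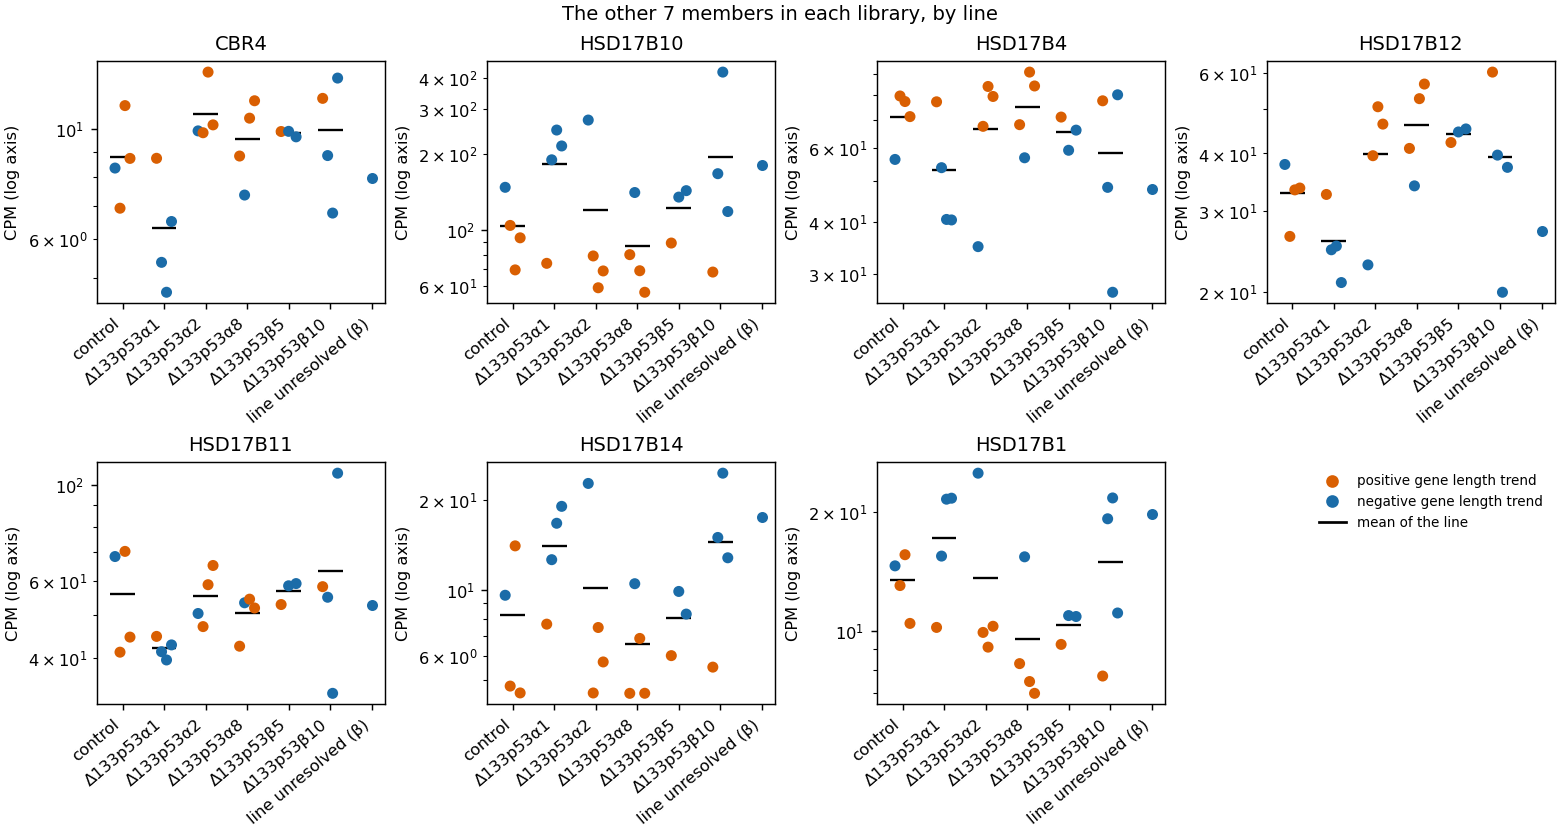
The other 7 members in each library, in CPM on log axes, by line, with colours for the direction of the gene length trend and bars for line means. HSD17B10 separates the sets, at 56.8 to 104 CPM against 118 to 421 CPM among the 23 libraries of the fit, and lines next to each other in mean overlap for every member.

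Of 15 other HSD17B and steroid dehydrogenase genes 9 were tested. HSD17B3 had 0 reads in every library of the 6 lines, HSD17B2 at most 1 and HSD17B13 at most 6, while HSD17B7, an enzyme of cholesterol synthesis, averaged 10.2 ± 2.26 CPM in control and 16.1 ± 3.16 in Δ133p53β10 (log2 fold change 0.62, adjusted p = 0.0863). In each comparison 1 of the 9 was called higher, where 0.596% to 1.76% of all genes were called higher. In the Δ133p53α lines the gene was HSD11B2, which inactivates cortisol, at 0.358 ± 0.0352 CPM in control and 1.27 ± 0.396, 1.09 ± 0.364 and 1.15 ± 0.474 CPM in Δ133p53α1, Δ133p53α2 and Δ133p53α8, with log2 fold changes of 1.77, 1.55 and 1.64. HSD11B2 had 8 to 11 reads per control library, so it passed the filter on low counts only through the isoform lines. Nothing is therefore read from its calls in the Δ133p53α lines. These calls were lost without the third Δ133p53α1 library (adjusted p = 0.0506), without the first or second Δ133p53α2 library or the first, the second or the fourth control library (up to 0.0701), and without the second Δ133p53α8 or second control library (up to 0.0559). The call in Δ133p53α2 was also lost with limma (1.45). Among positive-trend libraries alone the log2 fold changes were 1.48 (from 1 library of Δ133p53α1), 1.43 and 1.35. The gene was not called there in Δ133p53α2 or Δ133p53α8. Its log2 fold changes in Δ133p53β5 and Δ133p53β10 were 1.21 and 1.14 and did not pass, and the isoform difference of -0.48 (adjusted p = 0.382) did not pass either. In the Δ133p53β lines the gene was AKR1C3, a reductive dehydrogenase of androgens and prostaglandins. It had 0 reads in the 4 control libraries, 7, 8 and 18 in Δ133p53β5 and 18, 25, 20 and 4 in Δ133p53β10. Against a floor of 3 reads over the control group its mean CPM was at least 26.4-fold higher in Δ133p53β10 and at least 16.5-fold higher in Δ133p53β5. In the Δ133p53α lines it had 0 to 4 reads per library, so it passed the filter on low counts only through the Δ133p53β libraries. Nothing is therefore read from its calls in the Δ133p53β lines and between the isoforms. The fitted isoform difference of AKR1C3 was 3.89 on the log2 scale (SE 0.57, adjusted p = 0.000343), higher in the Δ133p53β lines. This difference ran from 3.61 to 5.01 with single libraries left out, and was 5.01 without the fourth Δ133p53α1 library, which held the 4 reads. Among positive-trend libraries alone, with 1 of each Δ133p53β line, the isoform difference was 4.60 and the log2 fold change in Δ133p53β5 was 5.87. AKR1C3 has paralogs of similar sequence, so its few reads are uncertain. The median of the list was between 0.01 and 0.21, and was the same with AKR1C3 at its floor.

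Among 21 genes of sex steroid synthesis, conjugation and reception 10 were tested, and none was called higher, where 0.596% to 1.76% of all genes were. STS, which frees steroids from their sulfates, was called lower in Δ133p53α1, Δ133p53α2, Δ133p53α8 and Δ133p53β10, where 1.54%, 1.83%, 1.55% and 2.97% of all genes were called lower. It held 1.53, 2.38, 1.35 and 2.28 CPM in control and 0.109 to 0.778 CPM in the 19 libraries of the isoform lines, without overlap. Its log2 fold changes were -2.82, -2.06, -1.85 and -1.73, and -1.29 (adjusted p = 0.0315) in Δ133p53β5, which passed the adjusted p alone. Among positive-trend libraries STS lay at -2.26 in Δ133p53α1 and -1.59 in Δ133p53β10, from 1 library of each line. ESR2, an estrogen receptor, was called lower in Δ133p53β10 and between the isoforms, by 2.58 and 1.88 on the log2 scale, from low counts of 6 to 10 reads in control and 0 to 2 in Δ133p53β10. Of all genes, 2.97% and 0.793% were called lower there. The Δ133p53β5 libraries held 2 to 5 reads, so ESR2 passed the filter on low counts only through other lines. Nothing is therefore read from its calls. Among positive-trend libraries, with 1 of each Δ133p53β line, the same differences were -1.85 and -1.92. The median of the list was between -0.39 and 0.18.

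**Figure D5:**
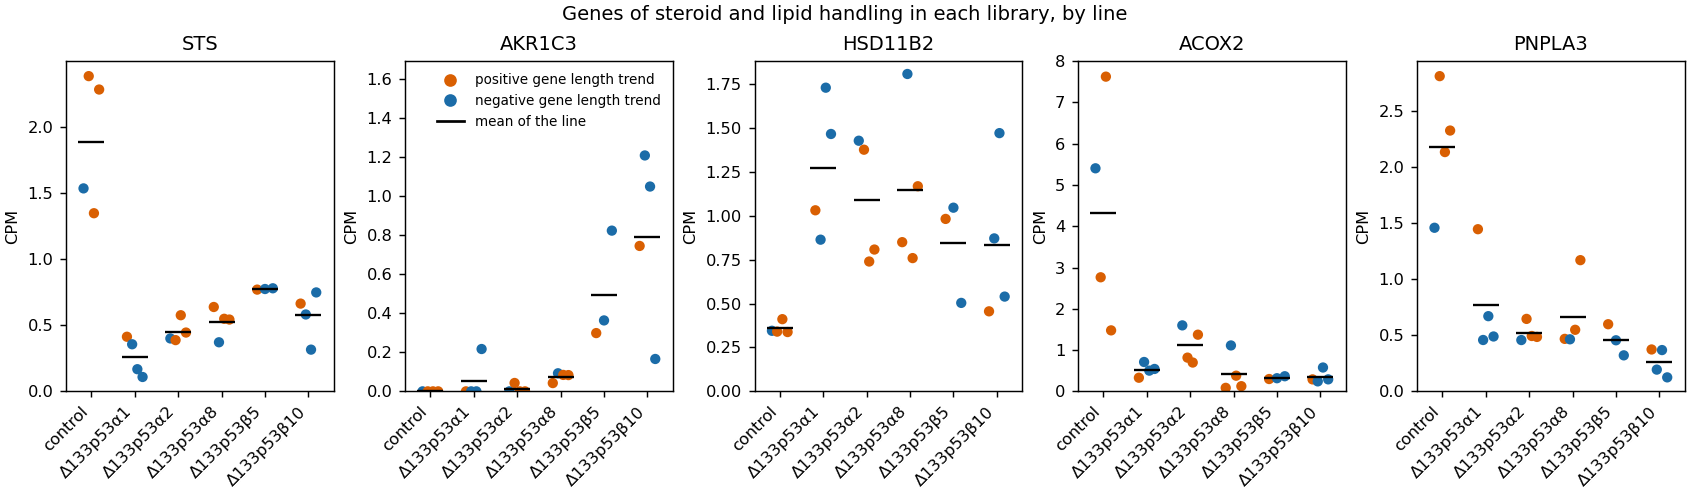
STS, AKR1C3, HSD11B2, ACOX2 and PNPLA3 in each library, in CPM on linear axes, by line, with colours for the direction of the gene length trend and bars for line means. STS, ACOX2 and PNPLA3 have lower means in the isoform lines than in control, where STS held 1.35 to 2.38 CPM, and AKR1C3 has 0 reads in control.

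The genes with the pattern most like HSD17B8, by the Pearson correlation of log2 CPM over the 23 libraries, were TGFB1I1 (r = 0.947), EPHX2 (0.930), IFFO1 (0.917) and TMEM163 (0.906). The correlations describe libraries of few lines with shared depth and composition. By Spearman's rank correlation the same 4 stood at 0.357, 0.718, 0.477 and 0.851, so for TGFB1I1 and IFFO1 the likeness lay mostly in the step between the Δ133p53β libraries and the others. TGFB1I1, which encodes a focal adhesion protein, averaged 2.80 ± 1.58 CPM in control, 5.61 ± 2.79 in Δ133p53α1, 0.420 ± 0.168 in Δ133p53β5 and 0.193 ± 0.154 in Δ133p53β10. EPHX2, the soluble epoxide hydrolase, averaged 0.538 ± 0.327 CPM in control and 0.0598 ± 0.0270 and 0.0131 ± 0.0263 CPM in Δ133p53β5 and Δ133p53β10. At such levels EPHX2 passed the filter on low counts only through lines other than the Δ133p53β lines. Both genes were picked for their likeness to HSD17B8, so nothing is read from their low Δ133p53β levels. For HSD17B14 the most alike were IFI35 (r = 0.967), POLD4 (0.961), ZDHHC24 (0.960), MPND (0.959) and PRDX5 (0.959), a peroxiredoxin at 144 ± 71.9 CPM in Δ133p53α8 and 308 ± 194 CPM in Δ133p53β10 (SD, n = 4). Their Spearman coefficients were 0.946 to 0.958. HSD17B14 followed the library sets, and the part of the sets in this likeness was not tested.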

How the data were processed

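The authors deposited raw counts, with genes as rows and the 24 libraries as columns. Per the labels, poly(A) RNA was enriched with oligo(dT) beads. Per the paper's methods, libraries were strand-specific, and reads were trimmed with Cutadapt, aligned to GRCh38 with HISAT2 and assigned to Ensembl genes by featureCounts. Whether the counting used strand is not stated.

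Conditions came from the labels. The title of 1 Δ133p53β library names Δ133p53β10 and the table header Δ133p53β5, so it was left out of the tests. The table held 1 unnamed row, with 0 reads, which was left out. Libraries of a line were distinct, with a lowest chi-square per degree of freedom of 15.8 over 33 pairs.

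Tests were run with edgeR 4.0.16 under R 4.3.3 (TMM, filterByExpr by group, quasi-likelihood fit of 23 libraries in 6 groups, 17 residual degrees of freedom, Benjamini-Hochberg adjustment over 18295 genes). Called genes had an adjusted p below 0.05 with an absolute log2 fold change of 1.5 or more. CPM used TMM library sizes, and RPKM the length of the canonical transcript in GENCODE. The script was tested on simulated counts. The trend of a library was the sign of the Spearman correlation between gene length and the deviation of its log2 CPM from the gene means. A floor of 3 reads was used for a group at 0. The floor covers counting error only, reads are not independent molecules, and 95% intervals come from the fit's standard errors. Alternatives were DESeq2 1.42.0 (the study's tool), limma 3.58.1, RLE size factors, other filters, the replicate number as a block, the library set as a term, the unresolved library in either line, each library left out, and, chosen after seeing the data, positive-trend libraries alone.

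The members and gene lists were chosen with earlier results of these data known. All members were described. Other genes named were the neighbours of HSD17B8, its pathway, the 5 genes most correlated with HSD17B8 or HSD17B14, up to 4 called genes of each other list, and, chosen after their values were seen, some uncalled list members given as examples. Some genes that this rule names are not reported here.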

Additional observations from a re-analysis of the deposited data

Results flagged for a closer look

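In groups of 4 libraries, 6 of 40 groups had a highest or lowest library set apart from the others by Dixon's criterion, which chance meets in about 1 of 20 groups. In Δ133p53α2 the first library read 25.1 CPM for HSD17B1 (others 9.12 to 10.3), 272 CPM for HSD17B10 (others 59.1 to 79.0) and 22.7 CPM for HSD17B14 (others 4.52 to 7.48). In Δ133p53α8 the second library read 15.4 CPM for HSD17B1 (others 6.97 to 8.28) and 8.99 CPM for HSD17B8 (others 1.91 to 3.12). Each of these 5 was its line's only library with a negative gene length trend, and the part of that trend was not tested. In Δ133p53α2 the third library, a positive-trend one, read 13.1 CPM for CBR4 (others 9.85 to 10.2).

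The Δ133p53β library of unresolved line, a negative-trend library outside the tests, read above the highest control library for 3 members: 19.8 CPM for HSD17B1 (control up to 15.6), 181 CPM for HSD17B10 (control up to 147) and 17.5 CPM for HSD17B14 (control up to 14.0).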

How the results depend on the processing

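HSD17B8 stayed at -4.26 to -5.65 on the log2 scale against control in both Δ133p53β lines, and at -4.53 to -5.08 between the isoforms, under every alternative tried. The number of members called is set by HSD17B8, which chose the family, so nothing is read from it. In Δ133p53α8 it was 1 among positive-trend libraries alone and 0 to 1 when a library was left out. Libraries of different lines with the same replicate number showed no steady likeness (correlations of -0.88 to 0.889 over 55 pairs, median 0.00802, 23 over 0.1). These correlations still held the difference between the library sets, and a batch shared by replicate number was not tested. With the replicate block, HSD17B8 lay at -4.54 in Δ133p53β5 and -4.83 in Δ133p53β10. The block gave 387, 458, 405, 663, 742 and 236 called genes (Δ133p53α1, Δ133p53α2, Δ133p53α8, Δ133p53β5, Δ133p53β10, isoforms), and the calls of PNPLA3 in Δ133p53α1 (-1.57, adjusted p = 0.0540) and ACOX2 in Δ133p53α2 (-1.81, adjusted p = 0.0924) were lost. Depth limits HSD17B8 in the Δ133p53β lines, where 4 to 13 reads carry each value.

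Of all tested genes, 472, 514, 463, 782, 866 and 254 were called without the block, in the same order. With a filter of 1 CPM, which tests fewer genes, the numbers were 269, 294, 274, 486, 523 and 125, and with the adjusted p alone 884, 966, 825, 1469, 1794 and 870. Among positive-trend libraries Δ133p53α1, Δ133p53β5 and Δ133p53β10 had 1 library each, so no number is given for them or between isoforms. In Δ133p53α1 the numbers were 1606, 314 and 314 without its first, its second or the third library. In Δ133p53β5 the number was 460 without the third library, and in Δ133p53β10 it was 1301 without the first. The cause was not tested.

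Directions turned only for uncalled log2 fold changes, and the cause was not tested. HSD17B8 was -0.108 in Δ133p53α1 among positive-trend libraries and ran from -0.0955 to 0.914 in Δ133p53α2 with single libraries left out. In Δ133p53α2, HSD17B1 was 0.0156 with RLE, 0.0239 without a filter, 0.0155 with DESeq2, 0.00823 with the replicate block, and 0.0124 and 0.0146 with the unresolved library in Δ133p53β5 or Δ133p53β10. With that library in Δ133p53β5, HSD17B11 was -0.00983 and HSD17B14 0.335 in that line, and HSD17B1 was 0.0764 between isoforms. With limma, HSD17B10 was -0.0772 in Δ133p53α2, HSD17B14 0.0858 in Δ133p53β5 and HSD17B1 -0.00174 in Δ133p53β10. With the 1 CPM filter HSD17B11 was -0.0297 in Δ133p53β5. With the set as a term, HSD17B1 was -0.157 in Δ133p53α1 and -0.392 in Δ133p53β10, HSD17B10 -0.0681 in Δ133p53α2 and -0.29 in Δ133p53β5, HSD17B11 -0.0141 and HSD17B4 0.154 in Δ133p53β5, and HSD17B4 0.162, HSD17B14 -0.123 and ABCD2 0.104 between isoforms. Among positive-trend libraries, HSD17B1 was -0.358 in Δ133p53α1 and -0.769 in Δ133p53β10, HSD17B10 -0.268, -0.334 and -0.385 in Δ133p53α1, Δ133p53α2 and Δ133p53β10, HSD17B14 -0.0414, -0.386 and -0.521 in the same lines and -0.12 between isoforms, HSD17B4 0.0175, 0.045 and 0.0228 in the same lines, HSD17B11 0.153 in Δ133p53α2, HSD17B12 0.0568 in Δ133p53α1, and ESR2 0.0784 and -0.204 in Δ133p53α1 and Δ133p53α8. With single libraries left out, values crossed 0 between -0.466 and 0.165 (HSD17B1, Δ133p53α2), -0.19 and 0.0866 (HSD17B1, isoforms), -0.0942 and 0.369 (HSD17B1, Δ133p53β10), -0.594 and 0.432 (HSD17B10, Δ133p53α2), -0.041 and 0.583 (HSD17B10, isoforms), -0.141 and 0.109 (HSD17B11, Δ133p53α2), -0.241 and 0.372 (HSD17B11, Δ133p53β10), -0.103 and 0.145 (HSD17B11, Δ133p53β5), -0.0215 and 0.464 (HSD17B12, Δ133p53β10), -0.481 and 0.676 (HSD17B14, Δ133p53α2), -0.653 and 0.0637 (HSD17B14, Δ133p53α8), -0.0454 and 0.401 (HSD17B14, isoforms), -0.233 and 0.354 (HSD17B14, Δ133p53β5), -0.231 and 0.103 (HSD17B4, Δ133p53α2), -0.0434 and 0.17 (HSD17B4, Δ133p53α8), -0.155 and 0.0546 (HSD17B4, isoforms), -0.351 and 0.0762 (ABCD2, isoforms) and -0.325 and 0.0548 (ESR2, Δ133p53α1).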
